A study of Homo sapiens with 34 samples.

Results

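The 9 genes described here encode parts of the MHC class I antigen presentation pathway: the heavy chains HLA-B, HLA-C and HLA-E, the light chain B2M, the peptide transporter subunit TAP1, the loading factor TAPBP, the immunoproteasome subunits PSMB8 and PSMB9, and the transcriptional activator NLRC5. They were given by symbol, with earlier results of these data known, and all 9 were found among the 26336 genes of the count table. They were described over all 34 libraries, which fall into 17 groups of 4 human prostate cell lines.

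Class I molecules show peptides from inside the cell to CD8 T cells. Proteasomes cut the peptides, the TAP transporter moves them into the endoplasmic reticulum, tapasin (TAPBP) holds the transporter next to empty class I molecules, and a heavy chain reaches the surface stably only in complex with beta-2 microglobulin (B2M). Interferons raise most of these genes, NLRC5 activates class I promoters, and low class I expression is a known feature of prostate cancers. HLA-E is read mainly by receptors of natural killer cells.

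The study asked how prostate cells behave on a coating of amorphous calcium phosphate (ACP), meant to stand for the mineral of bone, compared with culture plastic. RWPE is a non-tumorigenic prostate epithelial line, LNCaP came from a lymph node metastasis, and VCaP and MDAPCa2a came from bone metastases. Control medium was the usual medium of each line, stripped medium held serum treated with charcoal and dextran, and androgen medium was stripped medium with an androgen at a labelled 100 mM, which the labels name both as DHT and as testosterone. Plastic control had 2 libraries of each line, plastic stripped had 2 of LNCaP, 2 of MDAPCa2a and 1 of VCaP, ACP control had 2 each of RWPE, LNCaP and VCaP, ACP stripped had 2 each of LNCaP, VCaP and MDAPCa2a, and ACP androgen had 3 of RWPE and 2 of each other line. Plastic control was labelled as continuous culture and every other group as day 4, while the treatment protocol describes 4 days for plastic control as well, so whether culture time differed between the surfaces in control medium is not known. Each line had its own base medium, so line and medium cannot be told apart, and RWPE had a serum-free control medium and no stripped group. MDAPCa2a grew on protein-coated plastic but on ACP without that coating. All cultures had penicillin and streptomycin. Nothing in the labels says that the libraries of a group came from separate cultures, so p-values measure only the spread between these samples.

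Total counts ran from 15.4 M to 44.8 M reads per library, with the 8 plastic control libraries at 34.9 M or more. Levels are given as CPM, the count of a gene relative to the library total and scaled by TMM over all 34 libraries. The lines carried their own markers: KRT5 and TP63 in RWPE, ERG in VCaP and KLK3 in the tumor lines. FGG, a liver transcript, and CD74, the class II invariant chain, were higher in plastic control: CD74 was at 4.71 to 17.1 CPM in its 8 libraries and at 4.49 CPM or less in all others. ALB, another liver transcript, was higher in plastic control in RWPE, LNCaP and MDAPCa2a but not in VCaP. In VCaP it was at 54.6 and 130 CPM in plastic control and at 15.2 to 320 CPM in the other groups. The leukocyte markers PTPRC, CD3E and MS4A1 were at or near 0, with at most 8 reads in any library. The sum of 22 leukocyte and class II genes was 12.0 to 115 CPM in RWPE, LNCaP and VCaP outside VCaP ACP androgen, where it was 246 and 412 CPM and led by HLA-DMB and LYZ. In MDAPCa2a the sum was 1551 to 3703 CPM, of which HLA-DRA gave 93.9% to 97.2% of the group means. The part of these transcripts in the results below was not tested. Because these are bulk samples, fewer cells with a transcript and less of it per cell cannot be told apart.

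The 250 bases before the start of transcription are shown for 5 members. Of these, HLA-B, HLA-C and TAP1 varied together across groups. B2M varied with them only weakly (Pearson's r of group means 0.12 to 0.40), and TAPBP had negative r with them. Whether these sequences have a part in that was not tested. RefSeq promoters (GRCh38.p14) were matched for 7 of the 9 members, the others being HLA-E and NLRC5. All are written 5′ to 3′ on the gene's strand and end at the last base before the start. Capitals mark matches on either strand to 2 copies of GAAA with any 2 bases between them (the interferon-response pair) or to the shorter GAANNGAAA. A match to the pair need not match GAANNGAAA. Capitals also mark ATTGG (the CCAAT box), TGACG (the core of CREB-type sites) and the NF-kappaB consensus, again on either strand. Overlapping matches are merged. The windows are chr6:31357180-31357429, minus strand, for HLA-B, chr6:31272093-31272342, minus strand, for HLA-C, chr15:44711267-44711516, plus strand, for B2M, chr6:32853705-32853954, minus strand, for TAP1, and chr6:33314079-33314328, minus strand, for TAPBP.
HLA-B: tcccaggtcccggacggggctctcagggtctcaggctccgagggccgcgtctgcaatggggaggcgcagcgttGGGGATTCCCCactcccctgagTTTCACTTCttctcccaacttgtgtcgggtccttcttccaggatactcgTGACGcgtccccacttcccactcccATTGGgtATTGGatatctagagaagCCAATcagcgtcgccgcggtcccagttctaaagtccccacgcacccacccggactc
HLA-C: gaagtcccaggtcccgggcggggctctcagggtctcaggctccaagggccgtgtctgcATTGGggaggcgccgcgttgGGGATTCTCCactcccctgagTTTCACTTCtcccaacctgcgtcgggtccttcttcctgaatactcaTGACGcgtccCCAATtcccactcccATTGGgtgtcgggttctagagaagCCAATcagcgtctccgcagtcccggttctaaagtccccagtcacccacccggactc
B2M: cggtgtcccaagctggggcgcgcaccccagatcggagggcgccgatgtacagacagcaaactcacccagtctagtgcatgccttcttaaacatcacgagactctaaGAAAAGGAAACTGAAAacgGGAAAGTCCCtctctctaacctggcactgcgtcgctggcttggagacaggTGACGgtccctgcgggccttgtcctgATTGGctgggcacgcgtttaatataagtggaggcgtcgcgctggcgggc
TAP1: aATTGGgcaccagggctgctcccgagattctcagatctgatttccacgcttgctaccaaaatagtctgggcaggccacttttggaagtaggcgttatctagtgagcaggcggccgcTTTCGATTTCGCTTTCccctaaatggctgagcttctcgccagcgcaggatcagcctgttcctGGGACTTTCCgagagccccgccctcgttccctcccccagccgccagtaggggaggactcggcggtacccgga
TAPBP: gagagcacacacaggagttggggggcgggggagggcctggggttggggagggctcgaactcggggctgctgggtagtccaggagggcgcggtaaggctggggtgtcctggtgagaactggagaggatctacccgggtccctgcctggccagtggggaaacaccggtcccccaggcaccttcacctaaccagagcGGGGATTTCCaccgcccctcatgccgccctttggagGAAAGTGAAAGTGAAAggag

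The HLA-B and HLA-C windows hold the same kinds of match: an NF-kappaB match, a GAANNGAAA match, 1 TGACG and several ATTGG. B2M holds 2 overlapping interferon-response pairs, an NF-kappaB match, 1 TGACG and 1 ATTGG. TAP1 and TAPBP each hold 2 overlapping interferon-response pairs and 1 NF-kappaB match, and neither holds TGACG. TAP1 has another RefSeq entry with a later start, whose window (chr6:32852762-32853011) holds none of these matches. TAP1 stands head to head with PSMB9, and their windows overlap. Of all 35116 RefSeq promoter windows of this length, 3.02% hold the interferon-response pair, 6.56% hold GAANNGAAA, 32% hold ATTGG, 21.2% hold TGACG and 5.21% hold the NF-kappaB consensus. A match is a description of the letters only.

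The heavy chains were high in RWPE and low in VCaP. HLA-B was at 161 to 370 CPM in the 7 RWPE libraries, 76.7 to 224 CPM in the 10 LNCaP libraries, 61.1 to 126 CPM in the 8 MDAPCa2a libraries and 11.0 to 61.1 CPM in the 9 VCaP libraries. HLA-C was at 25.1 to 130 CPM in VCaP and at 252 to 633 CPM in the other lines, so that VCaP did not overlap any of them. HLA-E, the heavy chain that presents leader peptides of other class I chains, was at 120 to 203 CPM in RWPE, 33.7 to 92.3 CPM in LNCaP, at most 18.5 CPM in MDAPCa2a, with a median of 15.4 CPM, and 2.41 to 14.5 CPM in VCaP, and only the last pair of lines overlapped. Heavy chains are near-identical in parts and differ in sequence between people, and how shared reads were counted is not given in the sources used here, so the split of reads among HLA-B, HLA-C and HLA-E is uncertain.

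B2M, which every heavy chain needs, was like them highest in RWPE on plastic in control medium, but unlike them it was not lowest in VCaP there. On plastic in control medium it stood at 554 and 512 CPM in RWPE, 235 and 252 CPM in LNCaP, 259 and 285 CPM in VCaP and 307 and 300 CPM in MDAPCa2a. The 3 tumor lines thus lay close together on plastic, although HLA-C in VCaP was at 25.1 and 47.0 CPM there against 303 and 317 CPM in LNCaP. The highest B2M levels of RWPE, LNCaP and VCaP were all in ACP androgen: 1486, 1802 and 1083 CPM in RWPE, 926 and 909 CPM in LNCaP, and 686 and 865 CPM in VCaP. Only in RWPE did these overlap another group, since both ACP control libraries (1128 and 1211 CPM) lay above the lowest of the 3.

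TAPBP, the loading factor, overlapped between all lines, and TAP1 was lower in VCaP than elsewhere with some overlap. TAPBP was at 59.5 to 167 CPM over all 34 libraries. TAP1, a subunit of the peptide pump, was at 42.0 to 83.0 CPM in RWPE, 43.1 to 78.5 CPM in LNCaP, 41.4 to 85.5 CPM in MDAPCa2a and 18.5 to 49.0 CPM in VCaP. Its highest group was MDAPCa2a on plastic in control medium, at 85.5 and 84.1 CPM.

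Both immunoproteasome subunits were highest in RWPE, and PSMB8 was lowest in LNCaP. PSMB8, which replaces the constitutive subunit PSMB5, was at 0.483 to 5.24 CPM in LNCaP, with at most 143 reads, against 8.39 to 27.6 CPM in VCaP, 24.9 to 39.9 CPM in MDAPCa2a and 46.5 to 137 CPM in RWPE. No LNCaP library overlapped another line. PSMB9, which replaces PSMB6, was at 23.6 to 78.4 CPM in RWPE and at 0.824 to 12.2 CPM in the tumor lines, which overlapped each other. PSMB8 has an antisense neighbor, PSMB8-AS1, and whether strand was used in counting is not given in the sources used here, so its level is uncertain by that share.

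NLRC5 was low everywhere and split the lines in pairs. It was at 3.84 to 13.4 CPM in RWPE and 3.12 to 11.3 CPM in LNCaP, which overlapped, and at 0.343 to 2.46 CPM in VCaP and 0.582 to 1.53 CPM in MDAPCa2a, which overlapped each other but neither of the first 2. Per kilobase of longest transcript, the median over RWPE libraries was 470 CPM for B2M, 270 CPM for HLA-C, 192 CPM for HLA-B, 62.6 CPM for HLA-E and 1.58 CPM for NLRC5. In VCaP the same scale gave 199 CPM for B2M and 28.2 CPM for HLA-C.

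**Figure D1:**
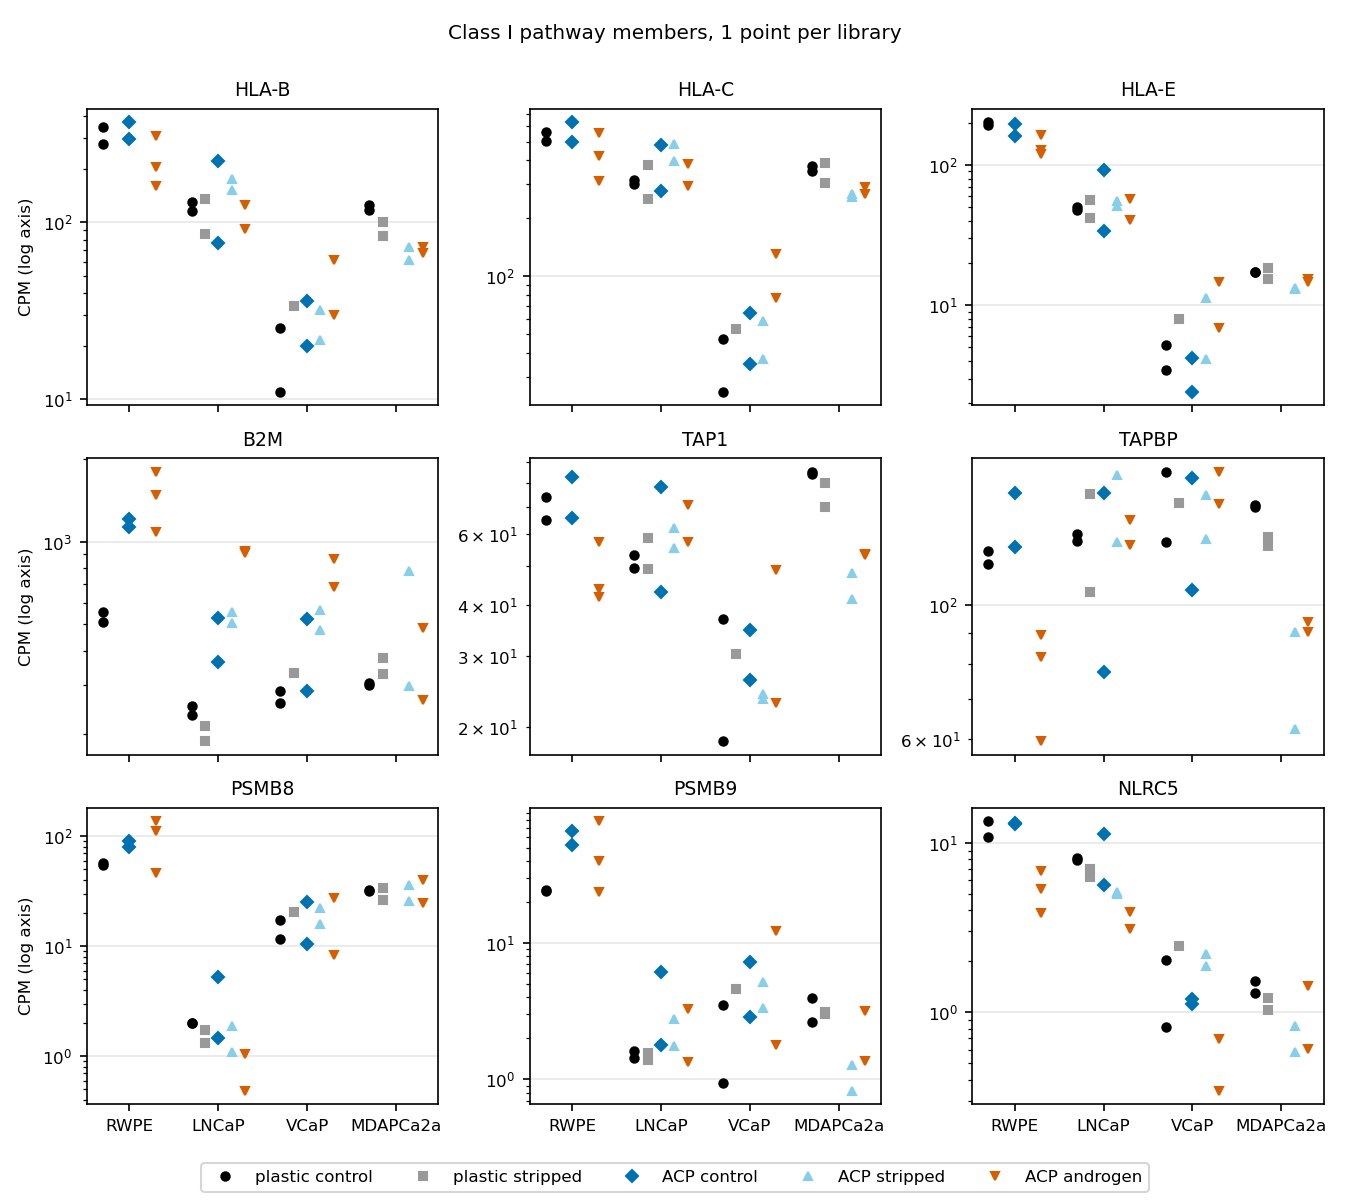
CPM of each of the 9 members (log axis) in every library, by cell line, with a marker for each culture group. VCaP lies lowest for HLA-C, LNCaP lies lowest for PSMB8, and TAPBP overlaps in all 4 lines.

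Line pairs were compared in plastic control and in ACP androgen, the only 2 settings that all 4 lines share. These 2 sets of libraries are separate, so neither comparison reuses samples of the other, although RWPE serves as reference for 3 lines in each. A member was called where edgeR's quasi-likelihood test gave a Benjamini-Hochberg adjusted p below 0.05 over all 17323 genes tested, and log2 differences are given ± SE.

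VCaP had the most members below RWPE. There 8 of 9 members were lower on plastic, where 62.4% of all genes were called and 30.3% were lower, and on ACP androgen 7 were lower and 1 was higher, where 67.4% of all genes were called, 34.6% lower and 32.8% higher. In LNCaP, 5 of 9 were lower on plastic (57.4% of all genes called, 27.9% lower), and on ACP androgen 4 were lower and 1 higher (66.9% called, 34.8% lower and 32.2% higher). In MDAPCa2a, 5 of 9 were lower on plastic (56.7% called, 28.4% lower) and 6 on ACP androgen (64.0% called, 34.2% lower). With so many genes called, the total counts of LNCaP and MDAPCa2a lie near the share of all genes. The median log2 difference of the 9 members against RWPE on plastic was -3.04 in VCaP, -1.11 in LNCaP and -0.80 in MDAPCa2a, beside 0.04, 0.01 and -0.00 over all genes. On ACP androgen the medians were -2.28, -0.65 and -1.66, beside -0.04, -0.05 and -0.09.

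Calls in the same direction in both settings covered 7 members in VCaP, namely HLA-B, HLA-C, HLA-E, B2M, PSMB8, PSMB9 and NLRC5. They covered 5 in MDAPCa2a (HLA-B, HLA-E, B2M, PSMB9 and NLRC5) and 4 in LNCaP (HLA-B, HLA-E, PSMB8 and PSMB9). Of all genes tested, 50.0% were called the same way in both settings in VCaP, 45.3% in MDAPCa2a and 46.6% in LNCaP, so the counts of the last pair of lines lie near the background. No member was called in opposite directions. The smaller of these differences rested on single libraries. HLA-B in LNCaP was not called without LNCaP library 1 on plastic (adjusted p = 0.0614, edgeR), nor on ACP androgen without RWPE library 2 or LNCaP library 1 (0.158 and 0.164). HLA-B in MDAPCa2a was not called on plastic without MDAPCa2a library 1 (0.0538). B2M in VCaP was not called on plastic without RWPE library 1 or VCaP library 1 (0.0527 and 0.0805) or on ACP androgen without RWPE library 2 or VCaP library 1 (0.103 and 0.120), and B2M in MDAPCa2a was not called on plastic without any 1 of the 4 libraries (0.0786 to 0.131). PSMB8 in MDAPCa2a on ACP androgen was not called without MDAPCa2a library 2 (-1.28, adjusted p = 0.0883, edgeR). HLA-E in VCaP showed the largest heavy chain difference: 5.24 and 3.43 CPM against 193 and 203 CPM in RWPE on plastic, a log2 difference of -5.50 ± 0.46 (adjusted p = 2.76e-10, edgeR). On ACP androgen the same comparison gave 6.85 and 14.5 CPM against 120, 163 and 128 CPM, and -3.65 ± 0.41 (adjusted p = 2.98e-08, edgeR). The largest difference of any member was PSMB8 in LNCaP on ACP androgen, at 0.483 and 1.04 CPM against 111, 137 and 46.5 CPM in RWPE, or -6.97 ± 0.67 (adjusted p = 2.07e-09, edgeR), and it was -4.77 ± 0.59 on plastic (adjusted p = 2.1e-07, edgeR).

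The other called differences from RWPE were as follows, all by edgeR. In VCaP the log2 differences on plastic were -4.08 ± 0.47 for HLA-B, -3.87 ± 0.37 for HLA-C, -0.95 ± 0.33 for B2M, -1.30 ± 0.30 for TAP1, -1.92 ± 0.51 for PSMB8, -3.40 ± 0.72 for PSMB9 and -3.04 ± 0.40 for NLRC5 (adjusted p 2.81e-09 to 0.015). On ACP androgen they were -2.28 ± 0.41 for HLA-B, -2.02 ± 0.33 for HLA-C, -0.88 ± 0.31 for B2M, -2.42 ± 0.50 for PSMB8, -2.73 ± 0.66 for PSMB9 and -3.32 ± 0.44 for NLRC5 (adjusted p 4.37e-07 to 0.0137). HLA-C, called in VCaP both times, was not called in LNCaP or MDAPCa2a in either setting, although it passed in LNCaP on plastic with DESeq2, RLE scaling and no count filter (adjusted p = 0.0246, 0.033 and 0.0166) and in MDAPCa2a on ACP androgen with no count filter (0.0398) and the replicate block (0.0427). In LNCaP the differences on plastic were -1.33 ± 0.42 for HLA-B, between -2.80 and -1.19 (95% interval) for HLA-E, -1.11 ± 0.33 for B2M and -3.96 ± 0.74 for PSMB9 (adjusted p 6.41e-05 to 0.0083), and on ACP androgen -1.03 ± 0.39 for HLA-B, -1.46 ± 0.36 for HLA-E and -4.31 ± 0.73 for PSMB9 (adjusted p 1.35e-05 to 0.0223). In MDAPCa2a they were on plastic -1.35 ± 0.42 for HLA-B, -3.51 ± 0.42 for HLA-E, -0.80 ± 0.33 for B2M, -2.86 ± 0.70 for PSMB9 and -3.08 ± 0.41 for NLRC5 (adjusted p 1.01e-07 to 0.0404). On ACP androgen they were -1.66 ± 0.40 for HLA-B, -3.17 ± 0.40 for HLA-E, -1.93 ± 0.32 for B2M, -1.58 ± 0.48 for PSMB8, -4.36 ± 0.75 for PSMB9 and -2.38 ± 0.41 for NLRC5 (adjusted p 2.14e-07 to 0.0059). NLRC5, the class I activator, was thus lower in both bone metastasis lines and was not called in LNCaP.

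TAPBP went the other way on ACP androgen. It was at 126 and 139 CPM in LNCaP and 147 and 167 CPM in VCaP there, above the RWPE libraries at 59.5, 89.4 and 82.1 CPM. The log2 differences were 0.80 ± 0.24 in LNCaP (adjusted p = 0.00451) and 1.05 ± 0.24 in VCaP (adjusted p = 0.000384), both by edgeR. On plastic they were 0.13 ± 0.26 and 0.31 ± 0.26 and were not called. The 3 RWPE libraries of this setting are also the ones in which TAPBP was below RWPE ACP control, as described further on.

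**Figure D2:**
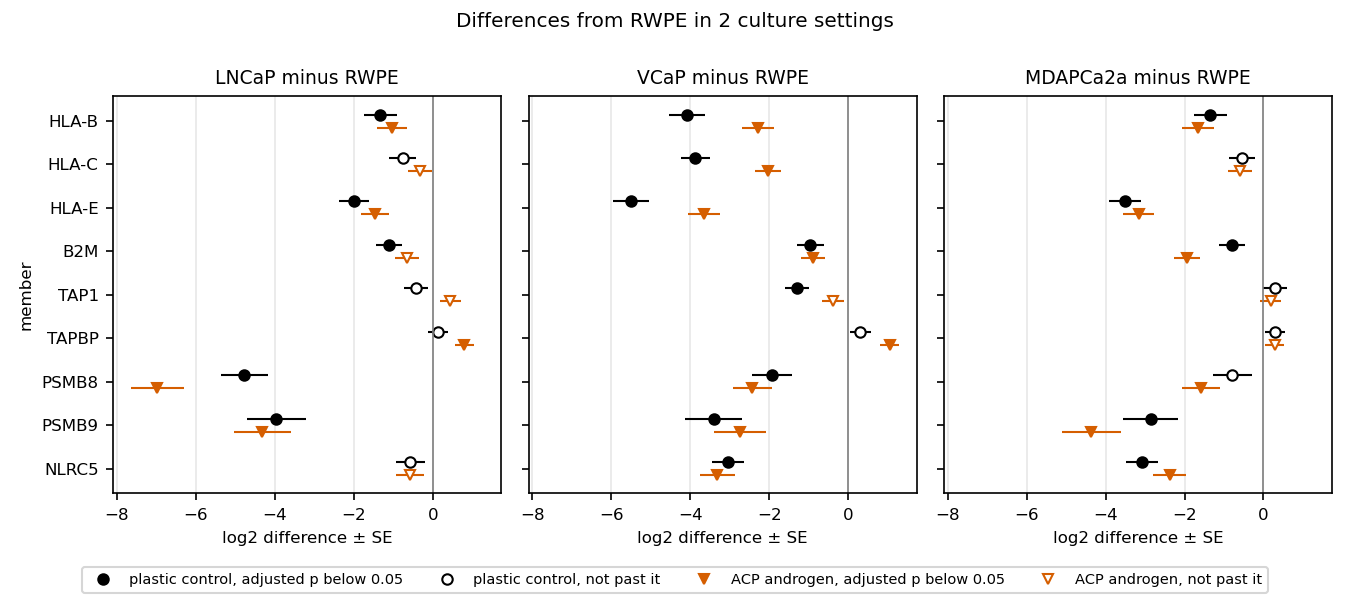
Log2 differences ± SE (edgeR) of each member in LNCaP, VCaP and MDAPCa2a against RWPE, in plastic control (circles) and in ACP androgen (triangles), filled where the adjusted p was below 0.05. HLA-B and HLA-E lie left of 0 in every panel and setting, and TAPBP lies right of 0 in all, with calls in LNCaP and VCaP on ACP androgen.

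The tumor lines also differed from each other, in a way that separated heavy chains from PSMB8. VCaP was below LNCaP for HLA-B, HLA-C, HLA-E, TAP1 and NLRC5 and above it for PSMB8, in both settings, so that 6 of 9 members were called each time (52.6% of all genes on plastic, 27.0% higher and 25.7% lower, and 56.0% on ACP androgen, 28.5% higher and 27.5% lower, with 40.6% called the same way in both). HLA-C, a classical heavy chain, differed by -3.10 ± 0.36 on plastic (adjusted p = 1.12e-07) and by -1.71 ± 0.34 on ACP androgen (adjusted p = 0.000162, edgeR), where VCaP had 76.9 and 130 CPM and LNCaP 294 and 384 CPM. PSMB8 differed by 2.85 ± 0.56 (adjusted p = 0.000136) and 4.55 ± 0.64 (adjusted p = 1.93e-06, edgeR). On plastic HLA-B differed by -2.75 ± 0.44, HLA-E by -3.50 ± 0.43, TAP1 by -0.89 ± 0.30 and NLRC5 by -2.48 ± 0.40 (adjusted p 2.3e-07 to 0.0158, edgeR), and on ACP androgen by -1.25 ± 0.42, -2.19 ± 0.40, -0.83 ± 0.30 and -2.74 ± 0.46 (adjusted p 1.81e-05 to 0.0221, edgeR). TAP1 was not called on plastic without LNCaP library 1 or VCaP library 1 (log2 difference -0.83 and -0.47). On ACP androgen neither HLA-B nor TAP1 was called without LNCaP library 2 (-1.01 and -0.67) or VCaP library 1 (-0.83 and -0.38).

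MDAPCa2a and LNCaP differed in fewer members than VCaP and LNCaP, with total counts near the share of all genes called. On plastic 3 members were called (40.2% of all genes, 19.3% higher and 21.0% lower) and on ACP androgen 4 (45.3%, 21.3% higher and 24.0% lower), and HLA-E, NLRC5 and PSMB8 were called both times, as were 27.7% of all genes in the same direction. HLA-E was lower in MDAPCa2a by 1.51 ± 0.39 and 1.70 ± 0.40 log2 units, and NLRC5 by 2.52 ± 0.40 and 1.80 ± 0.43, while PSMB8 was higher by 3.98 ± 0.58 and 5.39 ± 0.66 (adjusted p 3.15e-07 to 0.00297, edgeR). The ACP androgen call of NLRC5 ended without MDAPCa2a library 2 (log2 difference -1.29, adjusted p = 0.0532, edgeR). B2M was called on ACP androgen alone, at 486 and 266 CPM in MDAPCa2a against 926 and 909 CPM in LNCaP, or -1.29 ± 0.33 (adjusted p = 0.00278, edgeR), and without MDAPCa2a library 2 the adjusted p was 0.0770.

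Between the 2 bone metastasis lines, the total counts of called members lay below the share of all genes called. VCaP against MDAPCa2a gave 4 of 9 on plastic, all lower in VCaP (52.4% of all genes called, 25.1% lower). On ACP androgen it gave 3 of 9, of which 2 were higher (51.4% called, 26.8% higher and 24.5% lower). HLA-C was the 1 member called the same way in both (35.5% of all genes), lower in VCaP by 3.32 ± 0.36 and 1.43 ± 0.34 log2 units (adjusted p = 4.35e-08 and 0.00111, edgeR). HLA-B, HLA-E and TAP1 were lower in VCaP on plastic, by 2.73 ± 0.44, 1.99 ± 0.41 and 1.60 ± 0.30 (adjusted p 1.29e-05 to 0.000245, edgeR). B2M and TAPBP were higher in VCaP on ACP androgen, by 1.05 ± 0.33 and 0.77 ± 0.26 (adjusted p = 0.0103 and 0.017), and both calls were lost without VCaP library 2 (adjusted p = 0.0948 and 0.0990, edgeR) or MDAPCa2a library 2 (0.174 and 0.0634), that of TAPBP also without MDAPCa2a library 1 (0.0805).

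The balance of immunoproteasome and constitutive subunits was described as the log2 ratio of read counts within a library, compared between libraries so that gene length cancels. PSMB8 over PSMB5 was -1.41 to -0.24 in RWPE (median -0.63), -2.87 to -2.03 in MDAPCa2a (median -2.54), -3.85 to -1.89 in VCaP (median -2.65) and -8.65 to -5.24 in LNCaP (median -7.13). LNCaP did not overlap any line. PSMB9 over PSMB6 was highest in RWPE (-2.53 to -1.13), and VCaP (-5.43 to -2.48) overlapped its lower end, while LNCaP (-6.60 to -4.14) and MDAPCa2a (-6.40 to -4.54) overlapped each other. The third pair, PSMB10 over PSMB7, did not show this order: it was -3.49 to -2.22 in LNCaP and -3.76 to -2.06 in RWPE. Both genes of this pair were lower in LNCaP: PSMB10 was at 10.8 to 35.9 CPM against 29.8 to 90.2 CPM in RWPE, and PSMB7 at 118 to 176 CPM against 356 to 563 CPM. PSMB10 and PSMB7 were each called lower in LNCaP than in RWPE in both settings.

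**Figure D3:**
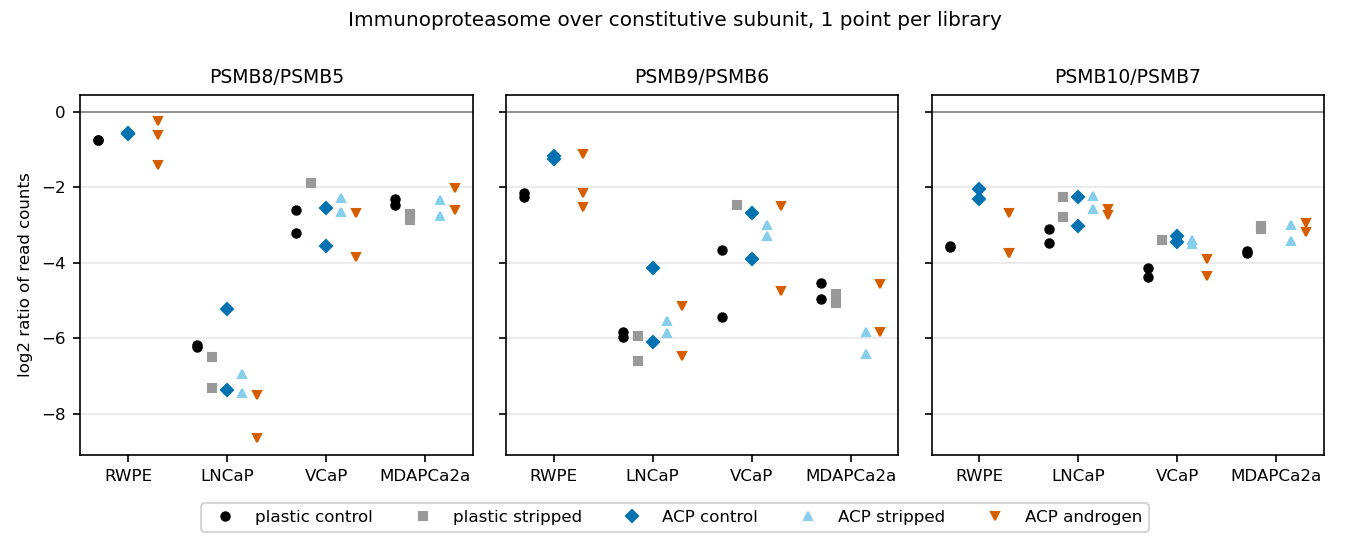
Log2 ratio of read counts of 3 immunoproteasome subunits over the constitutive subunit each replaces, 1 point per library, by line and culture group. In the first panel the 10 LNCaP libraries lie between -8.65 and -5.24, below all other libraries.

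The comparison of ACP with plastic asked whether the coated surface changed the pathway. B2M was the only member called, and it was higher on ACP. In LNCaP in stripped medium it was at 553 and 507 CPM on ACP against 188 and 214 CPM on plastic, without overlap. This is a log2 difference of 1.42 ± 0.18 (95% interval 1.03 to 1.81, adjusted p = 0.00178, edgeR), 1 of 9 members called beside 6.12% of all genes (4.32% higher). The call held under all the alternatives run for it, with differences of 1.12 to 1.58.

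In control medium the plastic libraries are those labelled as continuous culture. LNCaP B2M was at 364 and 526 CPM on ACP against 235 and 252 CPM, or 0.97 ± 0.17 (adjusted p = 0.0113, edgeR), and again 1 of 9 members was called (12.6% of all genes, 6.74% higher). RWPE B2M was at 1128 and 1211 CPM on ACP against 554 and 512 CPM, or 1.17 ± 0.25 (adjusted p = 0.0312, edgeR), the 1 call of 9 (4.16% of all genes, 2.83% higher). Groups did not overlap in either line. The LNCaP call did not hold when all lines were fitted together (adjusted p = 0.118), with offsets for GC content and length (0.62 ± 0.17, adjusted p = 0.0624) and without plastic library 1 or 2 (adjusted p = 0.138 and 0.0930). The RWPE call was lost without any 1 of its 4 libraries (adjusted p 0.200 to 0.266, edgeR) and kept with the offsets (1.01 ± 0.18, adjusted p = 0.0189).

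VCaP had no called member in either medium, and MDAPCa2a had none in stripped medium, its 1 surface comparison. VCaP B2M was at 524 and 287 CPM on ACP control against 259 and 285 CPM (0.65 ± 0.29, interval 0.01 to 1.29, adjusted p = 0.682, edgeR), with 0.0448% of all genes called. In stripped medium, with 1 plastic library, it was at 477 and 564 CPM against 333 CPM (0.66 ± 0.36, interval -0.15 to 1.46). Of 15614 genes none passed there with edgeR (0%), while 511 had p below 0.05 before adjustment and DESeq2 called 3. MDAPCa2a B2M on ACP stripped was at 781 and 299 CPM, on both sides of its plastic libraries (330 and 376 CPM), and 0.00734% of all genes were called.

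The heavy chains did not pass in any surface comparison, although HLA-B in LNCaP in stripped medium passed with no count filter (adjusted p = 0.0438, edgeR). In LNCaP in control medium HLA-B, HLA-C and HLA-E differed by 0.38 ± 0.37, 0.38 ± 0.24 and 0.45 ± 0.34, and HLA-E passed without ACP control library 1 (0.97, adjusted p = 0.0479, edgeR). In LNCaP in stripped medium HLA-B was at 177 and 152 CPM on ACP against 136 and 86.5 CPM (0.60 ± 0.37, interval -0.21 to 1.41) and HLA-C at 488 and 397 CPM against 380 and 252 CPM (0.52 ± 0.24, interval -0.01 to 1.05). In MDAPCa2a both were lower on ACP, HLA-B at 61.1 and 72.5 CPM against 100 and 83.3 CPM (-0.37 ± 0.15) and HLA-C at 268 and 260 CPM against 387 and 304 CPM (-0.29 ± 0.17), also without a call. TAP1 and TAPBP in MDAPCa2a were at 41.4 and 48.0 CPM against 79.9 and 69.9 CPM and at 62.3 and 90.2 CPM against 126 and 130 CPM. Their log2 differences of -0.65 ± 0.14 and -0.66 ± 0.17 did not pass (adjusted p = 0.185 and 0.217, edgeR), and TAP1 passed with DESeq2 (adjusted p = 0.0312).

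PSMB9 was higher on ACP in control medium without passing. RWPE had 66.4 and 52.8 CPM against 23.9 and 24.6 CPM on plastic (1.33 ± 0.42, adjusted p = 0.0988, edgeR), and LNCaP had 1.79 and 6.12 CPM against 1.62 and 1.44 CPM (1.46 ± 0.54, adjusted p = 0.0929, edgeR). Both passed with DESeq2 (adjusted p = 0.0211 and 0.0458). LNCaP ACP control library 2 was above library 1 for all 9 members, by 2.01 times at the median and up to 3.57 times for PSMB8, so this group spread more than most. The surface effect on LNCaP did not differ between media for any member (0 of 9, beside 0.307% of all genes): for B2M the difference of effects was 0.45 ± 0.25 (interval -0.08 to 0.99, adjusted p = 0.652, edgeR).

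**Figure D4:**
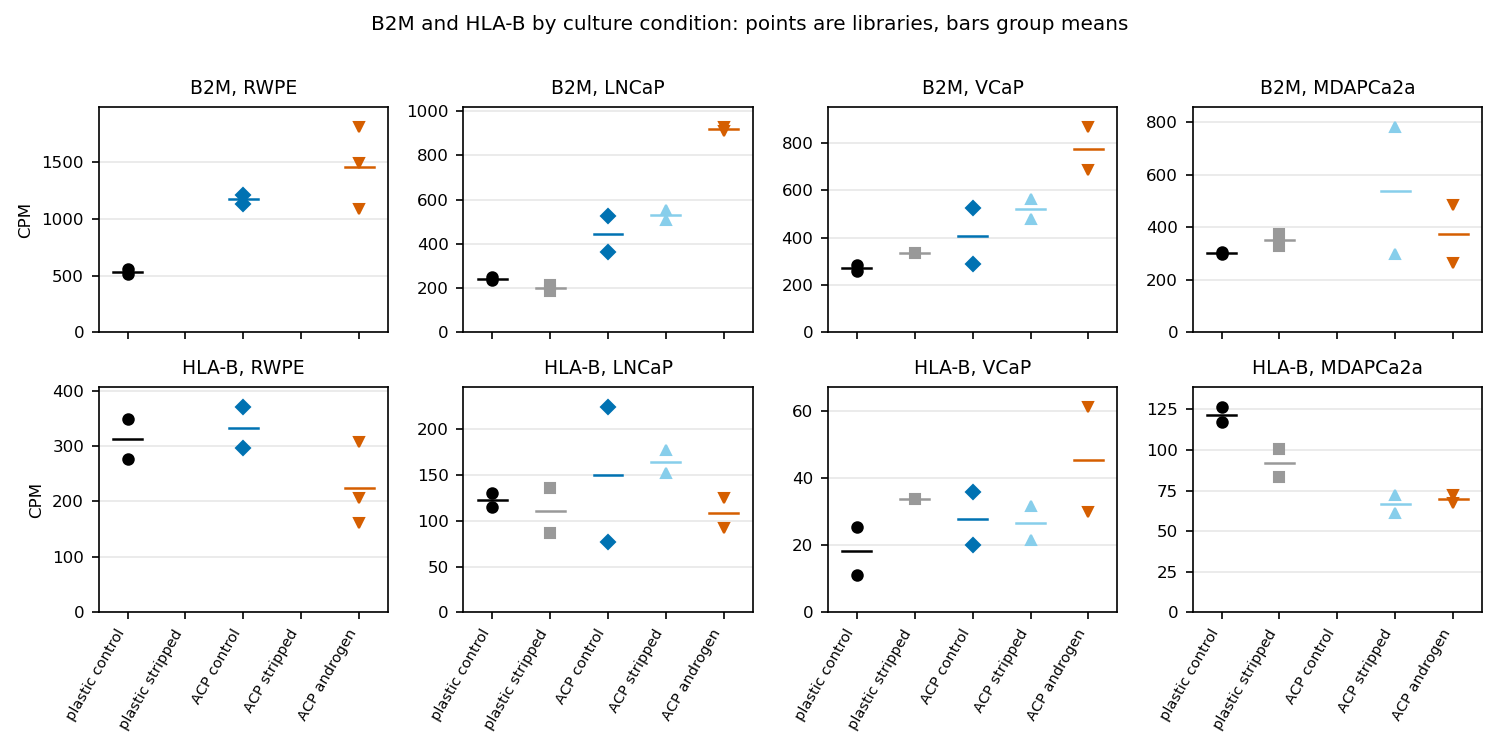
CPM of B2M (top) and HLA-B (bottom) by culture group in each line, with points for libraries and bars for group means. In LNCaP the 6 ACP libraries of B2M (364 to 926 CPM) all lie above the 4 plastic libraries (188 to 252 CPM), while HLA-B overlaps.

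Stripped against control serum gave no called member in LNCaP, VCaP or MDAPCa2a, the lines in which it was run. On plastic, 0 of 9 were called in LNCaP (9.45% of all genes), VCaP (0.890%) and MDAPCa2a (1.58%), and on ACP 0 of 9 in LNCaP (5.37%) and VCaP (0.820%). In VCaP on plastic the 9 differences were all positive, with a median of 0.62 beside 0.01 over all genes. All 9 rest on the same 1 stripped library. Differences of 0.83 ± 0.56 for NLRC5 and 1.23 ± 0.55 for HLA-E in VCaP on ACP had intervals of -0.43 to 2.08 and -0.00 to 2.46. In LNCaP on ACP, NLRC5 was at 5.12 and 4.99 CPM in stripped medium and at 5.62 and 11.3 CPM in control medium (-0.75 ± 0.29, adjusted p = 0.159, edgeR). NLRC5 passed there without ACP control library 1 (adjusted p = 0.0242).

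Androgen was compared with stripped medium on ACP in the 3 tumor lines. LNCaP B2M rose further, from 553 and 507 CPM to 926 and 909 CPM, by 0.79 ± 0.17 (adjusted p = 0.0220, edgeR), and was the 1 member of 9 called (7.73% of all genes, 3.77% higher). It did not hold when all lines were fitted together (adjusted p = 0.190) or without either stripped library or androgen library 1 (adjusted p 0.0975 to 0.147), and it was kept with the GC and length offsets (0.83 ± 0.17, adjusted p = 0.0150). The other LNCaP members did not follow: HLA-B was at 92.1 and 125 CPM with androgen against 177 and 152 CPM (-0.61 ± 0.37, interval -1.41 to 0.20) and HLA-C at 294 and 384 CPM against 488 and 397 CPM (-0.39 ± 0.24).

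In VCaP the called member was NLRC5, which fell, with as few as 8 reads in a VCaP library. It was at 0.343 and 0.697 CPM with androgen against 1.88 and 2.20 CPM in stripped medium, a log2 difference of -1.96 ± 0.60 (adjusted p = 0.0486, edgeR), and 1 of 9 members was called beside 17.5% of all genes (8.80% lower). The call is at the edge of the threshold: it was lost with RLE scaling (adjusted p = 0.0513), with the GC and length offsets (adjusted p = 0.0644) and without any 1 of the 4 libraries (adjusted p 0.103 to 0.206). HLA-C, which NLRC5 is known to activate, was at 76.9 and 130 CPM with androgen against 58.9 and 37.2 CPM, also without overlap, and did not pass (1.11 ± 0.40, adjusted p = 0.0844, edgeR). It passed with DESeq2 (adjusted p = 0.0197) and in the fit of all lines (adjusted p = 0.0189).

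The 2 VCaP androgen libraries differed from each other in an interferon pattern. Library 2 was above library 1 for all 9 members, by 2.05 times at the median and by 6.78 times for PSMB9 (12.2 against 1.80 CPM). The summed CPM of 13 interferon-stimulated genes was 746 in library 2 and 88.4 in library 1, against 70.4 to 203 in the other VCaP libraries. Within this list CXCL10, a chemokine, was at 163 CPM in library 2 and 3.21 CPM in library 1, and MX1, an antiviral GTPase, at 60.9 and 1.28 CPM. NLRC5 was low in both libraries. Its difference without library 2 was -2.56 and without library 1 was -1.53.

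MDAPCa2a showed no called member with androgen, and no gene at all: 0 of 13626 (0%) passed with edgeR, while 236 had p below 0.05 before adjustment and DESeq2 called 3. B2M was at 486 and 266 CPM against 781 and 299 CPM, with library 1 above library 2 in both groups (-0.58 ± 0.43, interval -1.55 to 0.40). NLRC5 was at 1.43 and 0.602 CPM against 0.824 and 0.582 CPM (0.48 ± 0.52).

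In RWPE androgen medium was set against ACP control medium, which differs in serum as well. NLRC5, TAPBP and TAP1 were lower, 3 of 9 members beside 19.1% of all genes called and 8.05% lower. NLRC5 was at 5.34, 6.78 and 3.84 CPM against 13.2 and 12.9 CPM (-1.28 ± 0.25, adjusted p = 0.0170, edgeR). TAPBP was at 59.5, 89.4 and 82.1 CPM against 153 and 125 CPM (-0.83 ± 0.19, adjusted p = 0.0212, edgeR), and TAP1 at 43.8, 57.2 and 42.0 CPM against 83.0 and 65.6 CPM (-0.62 ± 0.19, adjusted p = 0.0427, edgeR). Groups did not overlap for any of the 3. None of these calls held without ACP control library 1 or 2 (adjusted p 0.0913 to 0.319, edgeR), and TAP1 was also lost without androgen library 1 (0.0990) and in the fit of all lines (0.105). The number of genes called fell from 2730 to 0 without control library 1. With the GC and length offsets 2 genes were called in all and the 3 members were at -0.70 ± 0.29, -0.51 ± 0.16 and -0.39 ± 0.15 (adjusted p = 0.170, 0.0883 and 0.140, edgeR).

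The interferon-stimulated list moved in the same RWPE comparison. Of 13 genes, 7 were lower with androgen medium and 0 higher, beside 8.05% of all genes lower. The list median was -1.55 against -0.02 over all genes, and IFI27 had the largest fall (-2.42 ± 0.45, adjusted p = 0.0170, edgeR). These calls share the limits given above for the members, since only 2 genes in all were called with the GC and length offsets. In the list of transcription and interferon signalling genes, IRF9, which acts downstream of interferon receptors, had the largest fall (-1.36 ± 0.28, adjusted p = 0.0176, edgeR), and IFNGR1, a receptor chain for interferon gamma, was higher. The list sum was 247, 783 and 254 CPM in the 3 androgen libraries against 1049 and 979 CPM. Library 2, with the highest sum, also had the highest HLA-B, HLA-C, HLA-E, B2M, TAP1, TAPBP, PSMB8, PSMB9 and NLRC5 of the 3. The part of this spread in the member differences was not tested.

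Effects of androgen were compared between lines in the fit of all libraries. The HLA-C effect was higher in VCaP than in LNCaP by 1.48 ± 0.47 (adjusted p = 0.0451, edgeR; 1 of 9 members, 10.9% of all genes, 5.39% higher) and was 1.11 ± 0.40 in VCaP and -0.39 ± 0.24 in LNCaP in the fits of each line. The NLRC5 effect was lower in VCaP than in MDAPCa2a by 2.49 ± 0.69 (adjusted p = 0.0269, edgeR, 1 of 9, 7.86% of all genes, 4.27% lower). NLRC5 counts were low, at 8 to 85 reads in VCaP libraries and 10 to 51 reads in MDAPCa2a libraries. MDAPCa2a and LNCaP differed in 0 of 9 members (1.12% of all genes), with B2M at -1.32 ± 0.47 (adjusted p = 0.203, edgeR). The first 2 comparisons share the VCaP libraries. The HLA-C difference did not pass with RLE scaling (adjusted p = 0.0502) or without any 1 of 6 libraries, namely LNCaP stripped 1 and 2, LNCaP androgen 1 and 2, VCaP stripped 2 and VCaP androgen 2, and was 1.03 without the last (adjusted p = 0.248, edgeR). The NLRC5 difference did not pass without any 1 of 6 libraries either, namely VCaP stripped 1 and 2, VCaP androgen 1, MDAPCa2a stripped 1 and 2 and MDAPCa2a androgen 1, and was -1.76 without the last (adjusted p = 0.189, edgeR).

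The other genes of the pathway were counted from lists chosen with earlier results known. Of 15 loading and processing partners, 9 were lower and 3 higher in LNCaP than in RWPE on plastic, 10 and 3 in VCaP, and 7 and 3 in MDAPCa2a. Over all genes 27.9%, 30.3% and 28.4% were lower there, and the list medians were -0.85, -1.82 and -0.90 beside 0.01, 0.04 and -0.00. Of 17323 genes tested, 5113, 5566 and 4904 were higher, so 3 rises of 15 do not exceed that share. The chaperone CALR was the largest rise in all 3, by 1.59 ± 0.18, 2.09 ± 0.19 and 1.62 ± 0.18, and CD1D, a class I-like molecule for lipids, was the largest fall. ERAP2, which trims peptides, was higher in VCaP and MDAPCa2a than in LNCaP, by 3.51 ± 0.41 and 4.21 ± 0.41 on plastic. The iron regulator HFE, another class I-like gene, was at 0.180 CPM or less in both and at 4.25 to 11.4 CPM in LNCaP.

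JAK1, the kinase that interferon receptors share, followed another split than the heavy chains. It was at 43.6 to 109 CPM in RWPE and 32.3 to 67.4 CPM in VCaP, but at 1.30 to 4.60 CPM in LNCaP and 3.43 to 6.04 CPM in MDAPCa2a. VCaP was above LNCaP by 3.09 ± 0.30 on plastic (adjusted p = 5.47e-09, edgeR), the reverse of HLA-B, HLA-C and HLA-E. Of the 20 signalling and transcription genes, 8 were higher and 5 lower in VCaP than in LNCaP on plastic (27.0% and 25.7% of all genes), and JAK2 was the largest fall (-3.10 ± 0.26). IRF1, which binds interferon-response elements, was at 41.3 to 120 CPM in RWPE and at most 24.6 CPM in any tumor library.

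The interferon-stimulated genes were lower in the tumor lines on plastic. There 11 of 13 were lower than in RWPE in each of LNCaP, VCaP and MDAPCa2a, beside 27.9%, 30.3% and 28.4% of all genes. GBP2 was higher in LNCaP. The list medians were -3.69, -5.20 and -5.45, beside 0.01, 0.04 and -0.00 over all genes. On ACP androgen 7, 5 and 12 were lower (34.8%, 34.6% and 34.2% of all genes). In VCaP 4 of 13 were higher there, which is near the 32.8% of all genes called higher. The largest rise was CXCL10 (7.34 ± 1.04, adjusted p = 2.29e-06, edgeR), with the 2 VCaP libraries at 3.21 and 163 CPM. On ACP against plastic LNCaP had 5 higher in control and 4 higher in stripped medium, with none lower. Their list medians were 1.14 and 1.31 beside 0.02 and 0.01 over all genes, of which 6.74% and 4.32% were higher. Levels differed among them in LNCaP, from at most 0.989 CPM for CXCL10 to at most 71.4 CPM for ISG15. With androgen, VCaP had higher levels of 3 of 5 ligands of the natural killer receptor NKG2D, namely MICB, MICA and ULBP2. There 17.5% of all genes were called in either direction, and 1353 of 15614 were higher. MICB was at most 1.11 CPM in any VCaP library, with at most 26 reads.

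**Figure D5:**
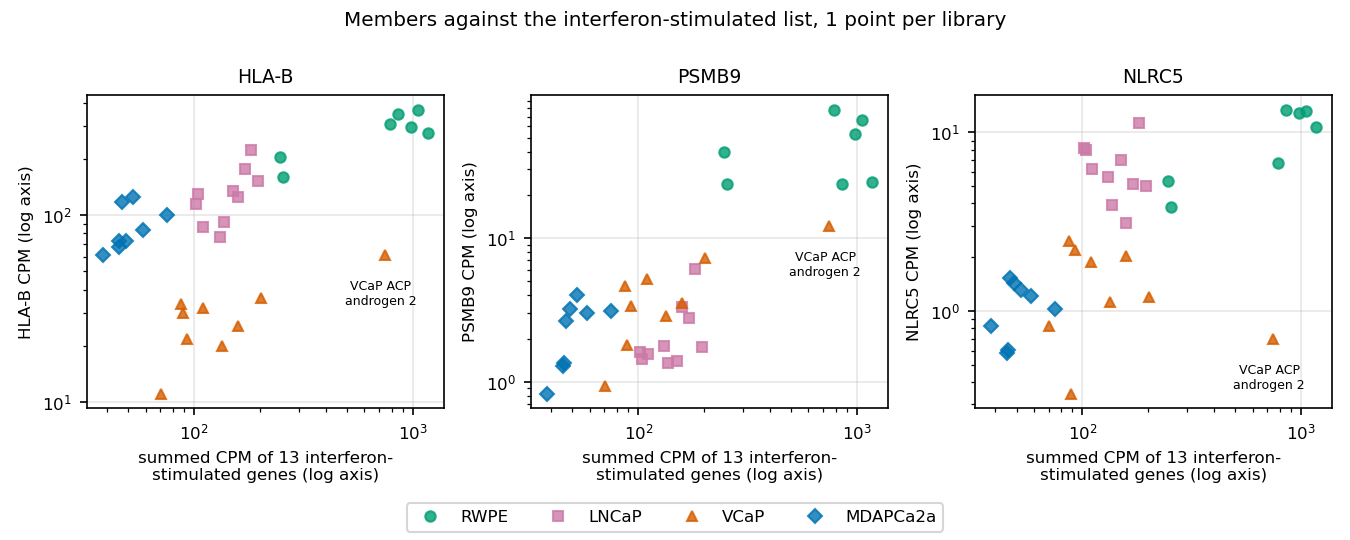
CPM of HLA-B, PSMB9 and NLRC5 against the summed CPM of 13 interferon-stimulated genes, 1 point per library, both axes on a log scale. VCaP ACP androgen library 2 stands apart from the other VCaP libraries on the horizontal axis, at 746 CPM, and is the highest VCaP library for HLA-B and PSMB9 but not for NLRC5.

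Across the 17 group means of log2 CPM, which share their line within 4 sets, the heavy chains ran together. Pearson's r was 0.95 for HLA-B with HLA-C, 0.95 for HLA-B with HLA-E, 0.92 for HLA-C with TAP1 and 0.82 for HLA-E with NLRC5. B2M had r of 0.40 with HLA-B and 0.28 with HLA-C, and its closest member was PSMB9 (0.69). TAPBP had negative r with all 3 heavy chains (-0.36 to -0.25). PSMB8 and PSMB9, the pair of immunoproteasome subunits, had r of 0.62.

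Among 13216 genes whose highest group mean reached 5 CPM, the pattern most like HLA-B was that of FTH1 (0.97), then F11R (0.97) and BAG3 (0.96). HLA-C was most like YAP1 (0.98), TNFRSF1A (0.97) and BAG3 (0.97), and HLA-E was much like TLCD2 (0.97) and RRAS (0.97). B2M was most like MYL12B (0.93), ARPC3 (0.91) and CYB5R4 (0.89), TAP1 like SH3GL1, TRIM16 and C17orf59 (each 0.93), and TAPBP like MAP3K3 (0.85), TSC22D4 (0.84) and GDPD5 (0.80). PSMB8 was most like ERAP2 (0.98), VEZF1 (0.98) and IRAK1BP1 (0.98), PSMB9 like GRAMD2 (0.97), IRF1 (0.97) and KLK5 (0.95), and NLRC5 like CMIP (0.95), LTBP2 (0.94) and PTGFRN (0.94). The 17 points come from 4 lines, and these values are a description of levels only.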

How the data were processed

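Messenger RNA of 4 prostate cell lines was selected by poly(A) and sequenced as 34 libraries, per the labels' protocols. The authors deposited 1 table of raw counts per gene (26336 genes), and the submitters' processing notes name STAR, HTSeq and hg19. Versions, settings, strand use and the handling of reads shared between genes are unknown here, as the sources used do not give them. In the RWPE plastic control columns, 16 values of 12 genes, none of them a member, looked like dates written over counts.

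Counts as deposited were fitted with edgeR 4.0.16 (R 4.3.3) by its quasi-likelihood test after TMM scaling, and filterByExpr, at its minimum of 10 counts, removed low genes. Comparisons within a line used the libraries of that line, while line pairs and differences of androgen effects used all 34. Benjamini-Hochberg adjustment ran over all genes tested, with a threshold of 0.05. SE is the size of the log2 difference divided by the square root of F. Totals of 15.4 M to 44.8 M reads set the counting precision, and 2 libraries in most groups limit the tests.

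The members were given by symbol, and the members and lists were chosen with earlier results of these data known. Named genes were the members, the largest rise and fall called in each list and the 3 genes most like each member in pattern. Marker genes and other list genes named, such as IRF1 and MX1, were chosen after their values were seen. Some items are not reported here. Alternatives were RLE scaling, no count filter, DESeq2 1.42.0, a replicate block, a fit of all lines, removal of the date-like genes and leaving out each library. Offsets for GC content and transcript length, from gene models matched to 90.2% of genes, were added after seeing the data. Scripts were tested on simulated data.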

Additional observations from a re-analysis of the deposited data

Results flagged for a closer look

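Both results here differed between lines under the same contrast, androgen against stripped medium on ACP, by a test of the difference itself. The HLA-C difference was lost under 7 of 12 alternatives and the NLRC5 difference under 6 of 12. The HLA-C effect was 1.48 log2 units higher in VCaP than in LNCaP. HLA-C was at 58.9 and 37.2 CPM in VCaP stripped medium and 76.9 and 130 CPM with androgen, and at 488 and 397 CPM and 294 and 384 CPM in LNCaP. The NLRC5 effect was -2.49 log2 units in VCaP relative to MDAPCa2a. NLRC5 was at 1.88 and 2.20 CPM in VCaP stripped medium and 0.343 and 0.697 CPM with androgen, and at 0.824 and 0.582 CPM and 1.43 and 0.602 CPM in MDAPCa2a.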

How the results depend on the processing

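Of 73 calls of members, 63 were between lines and 10 within lines or between effects. Between lines, 49 held under every alternative run and 14 were lost on leaving out a library. Of the 10 others, 9 were lost under at least 1 alternative, and the exception was B2M in LNCaP on ACP against plastic in stripped medium. No direction reversed. By setting, DESeq2, no count filter and the replicate block lost 0 calls, RLE scaling lost 2, the fit of all lines 3 of 8 and the GC and length offsets 5 of 8. The cause was not tested.

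The number of members past the threshold moved as follows. RWPE on ACP against plastic went from 1 to 2 with no count filter, 3 with the replicate block and 2 with DESeq2. LNCaP on ACP in control medium went from 1 to 2 with no filter or DESeq2 and to 0 in the fit of all lines and with the offsets, and in stripped medium from 1 to 2 with no filter. MDAPCa2a on ACP went from 0 to 1 with no filter or DESeq2, and LNCaP stripped medium on ACP from 0 to 1 with no filter. With androgen, LNCaP went from 1 to 2 with no filter and 0 in the fit of all lines, VCaP from 1 to 0 with RLE or the offsets and to 2 with no filter, DESeq2 or the fit of all lines, and RWPE from 3 to 5 with the replicate block and 0 with the offsets. The VCaP minus LNCaP difference went from 1 to 0 with RLE and 2 with no filter.

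Leaving out single libraries gave 0 for RWPE on ACP and VCaP androgen, 0 to 3 for LNCaP on ACP in control medium, 0 to 2 for LNCaP stripped medium on ACP, 0 to 1 for MDAPCa2a on ACP, LNCaP androgen and the 3 differences of androgen effects, 0 to 5 for RWPE androgen, 3 to 4 for MDAPCa2a against RWPE on plastic (5 with all) and 2 to 4 for MDAPCa2a against LNCaP on ACP androgen.

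Same-numbered libraries had deviations correlated at -0.24 to 0.27 over 25 comparisons, and the labels do not pair them, so the replicate block has no basis beyond a shared number.

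Counts of all genes called moved by over 1.5 times in 19 of 31 comparisons, and ranges here cover every alternative, libraries left out included. For ACP against plastic, RWPE had 595 (4 to 2661), LNCaP 1845 (0 to 2933) in control and 897 (66 to 1827) in stripped medium, VCaP 7 (1 to 72) and 0 (0 to 3), and MDAPCa2a 1 (0 to 320). For stripped medium on plastic, LNCaP had 1385 (310 to 2193), VCaP 139 (3 to 1561) and MDAPCa2a 215 (0 to 855), and on ACP LNCaP had 787 (191 to 1732) and VCaP 128 (0 to 1057). With androgen, LNCaP had 1133 (201 to 2028), VCaP 2727 (766 to 4545), MDAPCa2a 0 (0 to 9) and RWPE 2730 (0 to 6102). The differences of androgen effects had 1887 (1013 to 2466) for VCaP minus LNCaP, 194 (77 to 598) for MDAPCa2a minus LNCaP and 1362 (646 to 1960) for VCaP minus MDAPCa2a, and the LNCaP surface difference had 45 (11 to 338). Leaving out any 1 of the 4 libraries brought the 215 genes of MDAPCa2a to between 0 and 7.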
